A study of Homo sapiens with 12 samples.

Results

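The receptors described here are 10 receptor tyrosine kinase genes outside the ERBB family, FGFR1, FGFR2, FGFR3, FGFR4, MET, AXL, RET, DDR1, ROR1 and KIT. They were taken by gene symbol, and all 10 of 10 were found among the 22170 genes of the table. The cells were SKBR3, an established human breast cancer line labelled HER2+ and of wild-type genotype, grown in 4 groups with 3 RNA-seq libraries each. DMSO cells received the vehicle only, and lapatinib cells received 100 nM lapatinib, an inhibitor of the EGFR and HER2 kinases, for the last 24 h. GSK126 cells received 5 µM GSK126, an inhibitor of the histone methyltransferase EZH2, from day -6 until harvest on day 1. Cells given both drugs had GSK126 over the same days and 100 nM lapatinib on top of it for the last 24 h. All 4 groups come from 1 cell line, and nothing in the labels tells if replicate libraries are separate cultures, so the p-values cover only library-to-library spread, which may be technical.

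Receptor tyrosine kinases span the cell membrane. A ligand outside the cell brings receptor molecules together, their kinase domains phosphorylate each other, and adaptor proteins then start RAS-ERK and PI3K-AKT signalling. The 4 FGFR genes encode receptors for fibroblast growth factors, MET the receptor for hepatocyte growth factor, and AXL the receptor for GAS6. RET binds ligands of the GDNF family through co-receptors, DDR1 binds collagen, ROR1 is a receptor of the Wnt family of ligands, and KIT is the receptor for stem cell factor. In HER2-driven breast cancer cells, receptors outside the ERBB family are studied because they can feed the same pathways when HER2 is inhibited.

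Values are normalized read counts, made by the authors as reads divided by 1 size factor per library. The 12 libraries held 17.7 to 30.3 M reads on genes. Genes were tested where 3 or more libraries reached a value of 10. That left 14179 genes, which included 9 of the 10 receptors and left out ROR1. Each log2 change is given ± SE from limma, on values to which 1 was added before taking log2, which understates the change of low genes. A change was called at a Benjamini-Hochberg adjusted p under 0.05 over all genes tested. Epithelial and HER2 amplicon markers fitted the label, with ERBB2 at 88082 to 305779 and KRT8 at 147156 to 212769, except that CDH1 had at most 12.4. One library with both drugs, number 1, stood apart: 21669 genes had reads there, and the other libraries detected 15059 to 17338. By the proportions of added spike-in transcripts, the libraries were clustered into 3 groups, a number that was set and not found from the data. All DMSO, all lapatinib and libraries 2 and 3 with both drugs were in 1 of them. GSK126 libraries 2 and 3 and library 1 with both drugs were in another, and GSK126 library 1 was alone. GSK126 against DMSO therefore has no pair of libraries from 1 spike-in group. When libraries were scaled to their spike-in total, the median log2 change of all tested genes went from 0.04 to -0.49 for lapatinib against DMSO, from -0.03 to -0.49 for both drugs against lapatinib, from 0.04 to -0.99 for both drugs against GSK126 and from 0.06 to -0.94 for both drugs against DMSO. Scaling to the total count moved it to 0.20, 0.06, 0.19 and 0.31 in the same order. The changes below are relative to the other genes under the authors' scaling.

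Untreated cells carried DDR1 and FGFR4 at the highest levels of these genes. Levels of different genes were compared per kb of merged exons (GENCODE v29 basic transcripts, build GRCh38). In DMSO the mean of DDR1 was 1467 ± 331 normalized reads per kb (SD, n = 3). FGFR4 followed with 753 ± 82.8, FGFR3 with 176 ± 24.97, MET with 130.2 ± 11.4, FGFR2 with 94.3 ± 10.3 and FGFR1 with 16.02 ± 4.17. The libraries of these 6 genes did not overlap from one gene to the next in that order. AXL and RET were far lower, at 2.43 ± 0.935 and 2.00 ± 0.847 per kb, and overlapped each other. ROR1 (0.470 ± 0.420) and KIT (0.407 ± 0.547) were lowest and also overlapped. With both drugs this order changed for the FGF receptors. FGFR3 (191 ± 24.8) and FGFR4 (170.1 ± 6.87) then overlapped, as did FGFR4 and MET (150.2 ± 25.2), and MET and FGFR2 (123 ± 18.3).

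FGFR4, an FGF receptor best known in the liver as the receptor of the bile acid hormone FGF19, fell with GSK126 and fell further with both drugs. Its normalized counts were 2618, 2495 and 2111 in DMSO libraries 1, 2 and 3, and 2799.7, 2683 and 2457 with lapatinib. They were 1244, 965 and 1359 with GSK126. With both drugs they were 543, 566 and 522. Every library with both drugs was below every GSK126 library, and every GSK126 library was below every library without GSK126, while the DMSO and lapatinib libraries overlapped. In bulk RNA, fewer cells with a transcript and less of it per cell cannot be told apart. GSK126 lowered FGFR4 2.02-fold against DMSO by the ratio of means (log2 change -1.03 ± 0.15, adjusted p = 0.000417). That call was lost with the spike-in group as a term in the fit (log2 change -1.06, adjusted p = 0.0595) and with spike-in scaling (log2 change -0.99, adjusted p = 0.561).

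In cells that had lapatinib on both sides, GSK126 lowered FGFR4 4.87-fold (log2 change -2.28 ± 0.15, adjusted p = 6.03e-07). That comparison can be made within 1 spike-in group by leaving out library 1 with both drugs, and the log2 change was then -2.28 again (adjusted p = 1.22e-05). Lapatinib in cells that already had GSK126 lowered FGFR4 2.19-fold (log2 change -1.11 ± 0.15, adjusted p = 0.000248). Lapatinib alone gave a log2 change of 0.14 ± 0.15 against DMSO (adjusted p = 0.514, 95% interval -0.18 to 0.46). Against DMSO, both drugs lowered it 4.43-fold (log2 change -2.14 ± 0.15, adjusted p = 3.35e-07). Had the log2 changes of the single drugs added up, the level with both drugs would have been 1298, and the mean on the log2 scale was 543. The difference between the lapatinib effects with and without GSK126 was -1.25 ± 0.21 on the log2 scale, with an unadjusted p of 5.28e-05 in limma, rank 6 among all tested genes. It did not pass the adjusted threshold (adjusted p = 0.102). It passed in DESeq2 (adjusted p = 4.38e-05), and in limma without GSK126 library 1 (adjusted p = 0.0452) or 2 (0.0347), and it missed the threshold in edgeR (adjusted p = 0.0872). Over all its alternatives the adjusted p ranged from 4.38e-05 to 0.932.

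Both annotated starts of FGFR4 are shown because they differ in sequence type and gene-level counts do not say which of them is used. They are RefSeq promoter windows of build GRCh38.p14, from 250 bases before to 50 bases after a start, printed 5′ to 3′ with CG pairs in capitals. CG-rich promoters are the usual place of the EZH2 mark in other cell systems, and no such mark was measured here. The first window lies at chr5:177086665-177086964 and the second at chr5:177089300-177089599, both on the plus strand.
FGFR4 start 1: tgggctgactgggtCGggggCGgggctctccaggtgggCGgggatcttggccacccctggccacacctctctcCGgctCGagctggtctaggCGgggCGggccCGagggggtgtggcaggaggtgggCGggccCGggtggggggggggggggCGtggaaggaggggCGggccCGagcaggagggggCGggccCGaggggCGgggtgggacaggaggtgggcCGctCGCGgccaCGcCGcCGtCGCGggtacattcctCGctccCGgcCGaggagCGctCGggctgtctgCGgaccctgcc
FGFR4 start 2: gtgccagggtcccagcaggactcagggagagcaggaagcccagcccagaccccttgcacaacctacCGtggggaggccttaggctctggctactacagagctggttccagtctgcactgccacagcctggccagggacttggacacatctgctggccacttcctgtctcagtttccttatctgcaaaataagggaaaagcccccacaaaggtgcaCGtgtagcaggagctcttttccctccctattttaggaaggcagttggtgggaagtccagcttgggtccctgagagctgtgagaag
The first window had 30 CG pairs and the second had 2, against a median of 14 over 35116 windows of the same length (quartiles 4 and 28).

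**Figure D1:**
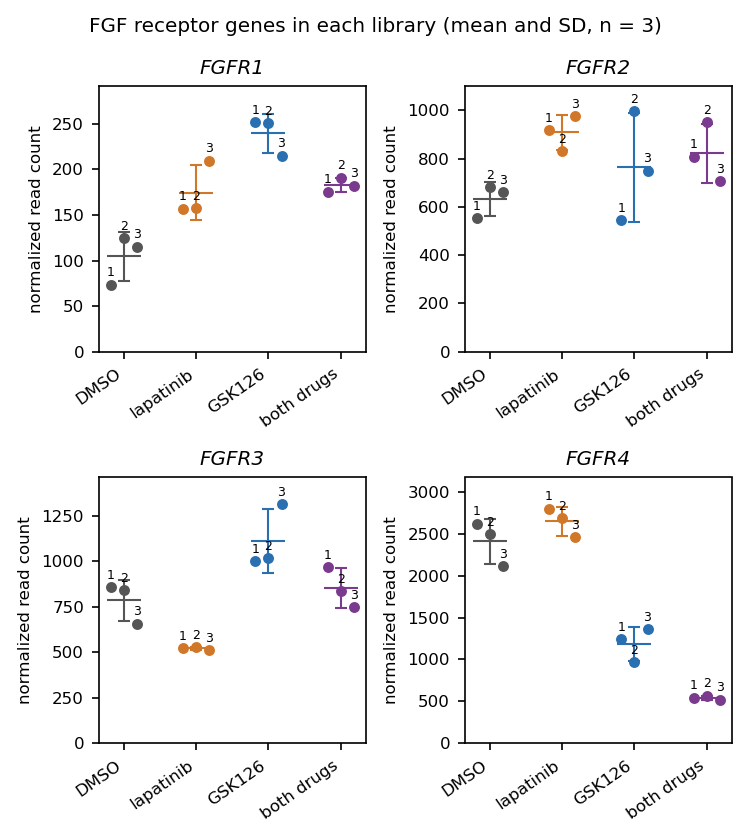
Normalized read count (vertical axis, linear from 0) of the 4 FGF receptor genes in each library, by group; points are libraries with their replicate number, horizontal bars are means and vertical bars SD (n = 3). FGFR4 lies at 2111 to 2799.7 without GSK126, at 965 to 1359 with GSK126 and at 522 to 566 with both drugs, while FGFR1 is lowest in DMSO.

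FGFR3, the FGF receptor known for its role in bone growth and bladder cancer, fell with lapatinib alone, and was higher with both drugs than with lapatinib. Its counts were 860.5, 841 and 659 in DMSO, and 522, 530.0 and 512 with lapatinib. They were 1002, 1017 and 1314 with GSK126, and 969.5, 837 and 749.8 with both drugs. The lapatinib libraries were below all others, and the GSK126 libraries above all others. Lapatinib lowered FGFR3 by 0.58 ± 0.16 on the log2 scale (log2 change -0.58, adjusted p = 0.0178). That call rested on the full set of libraries, since the adjusted p was 0.0700 and 0.0581 without DMSO library 1 or 2, and 0.0575, 0.0526 and 0.0618 without lapatinib library 1, 2 or 3. With total-count scaling it was 0.150 and with spike-in scaling 0.228. Both drugs against lapatinib raised FGFR3 by 0.70 ± 0.16 (adjusted p = 0.00836), and by 0.60 without library 1 with both drugs (adjusted p = 0.0485), the call being lost with spike-in scaling (0.23, adjusted p = 0.796). GSK126 against DMSO gave 0.50 ± 0.16, which did not pass (adjusted p = 0.0589, and 0.0284 without GSK126 library 1). Lapatinib after GSK126 gave -0.38 ± 0.16 (adjusted p = 0.123), and the lapatinib effects with and without GSK126 differed by 0.20 ± 0.23 (adjusted p = 1.00, 95% interval -0.29 to 0.70).

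The single RefSeq promoter window of FGFR3 is printed beside that of KIT, described further on, because these were the receptor genes called higher with both drugs than with lapatinib. They lie at chr4:1793043-1793342 and chr4:54657707-54658006, both on the plus strand of GRCh38.p14, with CG pairs in capitals.
FGFR3 start 1: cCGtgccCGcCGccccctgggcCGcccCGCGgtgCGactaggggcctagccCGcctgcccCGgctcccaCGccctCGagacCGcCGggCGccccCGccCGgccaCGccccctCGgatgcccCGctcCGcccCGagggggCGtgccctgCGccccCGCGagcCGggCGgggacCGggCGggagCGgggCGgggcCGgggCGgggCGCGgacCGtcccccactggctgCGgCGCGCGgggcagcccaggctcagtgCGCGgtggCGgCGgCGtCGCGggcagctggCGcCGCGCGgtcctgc
KIT start 1: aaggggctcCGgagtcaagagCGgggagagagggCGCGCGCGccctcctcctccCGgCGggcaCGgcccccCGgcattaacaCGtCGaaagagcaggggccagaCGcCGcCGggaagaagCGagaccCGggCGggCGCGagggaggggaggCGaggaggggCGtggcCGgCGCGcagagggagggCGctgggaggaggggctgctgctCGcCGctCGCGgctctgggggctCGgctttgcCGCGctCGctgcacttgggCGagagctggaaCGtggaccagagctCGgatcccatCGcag
FGFR3 had 51 CG pairs, more than 98.99% of all windows, and KIT had 38, more than 90.1%. Windows were read for 9 of the 10 receptors, and FGFR1 was not analysed here. The most CG-rich receptor window was the first of FGFR2, a gene called in no comparison, with 52 CG pairs (more than 99.2% of windows), and its other 4 windows had 5 to 8. The first RET window had 41. MET, also called in no comparison, had 30, the same count as the first FGFR4 window, and ROR1 had 29. The letters GGGGCGGGG, a GC box bound by SP and KLF factors, were searched on both strands and found in 15.7% of all windows. Among the receptors they were in the first windows of FGFR4 and RET, in FGFR3 and in 1 of 8 DDR1 windows. They were absent from every window of AXL, FGFR2, KIT, MET and ROR1 and from the second windows of FGFR4 and RET. A difference from all windows was not tested. The forkhead letters GTAAACA, searched on both strands, were found in the second AXL window alone (3.42% of all windows). A match describes letters and not a site in use.

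FGFR1, the FGF receptor most often amplified in breast cancer, rose with each drug given alone. Its counts were 73.5, 124 and 115 in DMSO, 157, 158 and 209 with lapatinib, 252, 251 and 215 with GSK126 and 175, 191 and 182 with both drugs. All DMSO libraries were below all others, and all GSK126 libraries were the highest. GSK126 raised FGFR1 2.29-fold against DMSO (log2 change 1.22 ± 0.22, adjusted p = 0.00206). That call was lost with the spike-in group as a term (1.27, adjusted p = 0.160) and with spike-in scaling (1.26, adjusted p = 0.400). Lapatinib raised it 1.67-fold (0.76 ± 0.22, adjusted p = 0.0215), and the adjusted p was 0.0855 without DMSO library 1, 0.103 without lapatinib library 3 and 0.869 with spike-in scaling (0.22). Both drugs against DMSO raised it by 0.84 ± 0.22 (adjusted p = 0.00824), a direction that turned with spike-in scaling (-0.16, where the median of all genes was -0.94). With both drugs FGFR1 passed the test against neither single drug, at 0.08 ± 0.22 against lapatinib (adjusted p = 0.867, 95% interval -0.39 to 0.55) and -0.38 ± 0.22 against GSK126 (adjusted p = 0.245, 95% interval -0.86 to 0.09). The sum of the single log2 changes would have given 404, against 183 measured. That difference, -1.14 ± 0.31, had an unadjusted p of 0.00284 and did not pass in limma (adjusted p = 0.341) or edgeR (adjusted p = 0.351), and passed in DESeq2 (adjusted p = 0.0454). Over its alternatives the adjusted p was 0.0454 to 0.932. A noncoding gene on the opposite strand, AC087623.1, shares 53 exon bases with FGFR1 in GENCODE v29, and the counting is not stated to use strand.

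FGFR2, the FGF receptor of epithelia for ligands from the stroma, was not called in any comparison. Its counts were 554, 683 and 661 in DMSO, and 919, 830.2 and 977 with lapatinib. With GSK126 they were 544, 996 and 750.5, and with both drugs 808, 950.5 and 706. The lapatinib libraries lay above the DMSO libraries without overlap, and the GSK126 libraries, from 544 to 996, spanned the values of all other groups. The log2 change with lapatinib was 0.52 ± 0.20 (adjusted p = 0.0726). It passed in a fit of only these groups (adjusted p = 0.00916), with the spike-in group as a term (0.0221) and without GSK126 library 1 (0.0153) or 2 (0.0265).

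Added up per kb of exon, the 4 FGF receptor genes had 1040.2 ± 101 normalized reads in DMSO (SD, n = 3), 1107 ± 46.3 with lapatinib, 772 ± 80.9 with GSK126 and 512 ± 40.6 with both drugs. FGFR4 made up 72.4% ± 1.46 of that sum in DMSO and 74.7% ± 2.00 with lapatinib. It made up 48.1% ± 5.55 with GSK126 and 33.3% ± 1.71 with both drugs, where the 3 libraries lay between 31.8% and 35.2%. FGFR3 went from 16.9% ± 0.810 in DMSO and 10.6% ± 0.373 with lapatinib to 32.2% ± 1.75 with GSK126 and 37.3% ± 2.98 with both drugs. The share of FGFR2 was 9.16% ± 1.60, 12.3% ± 1.31, 14.9% ± 5.12 and 23.9% ± 2.22 in the order DMSO, lapatinib, GSK126 and both drugs. FGFR1 had 1.56% ± 0.476, 2.43% ± 0.517, 4.81% ± 0.871 and 5.50% ± 0.489 in the same order. Shares within a library do not depend on how libraries are scaled. They do depend on one another, so a share can rise without a called change in level. Between DMSO and both drugs FGFR2 went from 94.3 to 123 per kb and FGFR3 from 176 to 191, and neither was called. For the share of FGFR4, the libraries with GSK126 did not overlap those without it, and an exact two-sided permutation test of 3 libraries against 3 gave p = 0.1, the smallest p this design allows, for GSK126 against DMSO, both drugs against lapatinib and both drugs against GSK126. Without length scaling FGFR4 had 61.2%, 62.2%, 36.0% and 22.7% of the FGF receptor counts in the 4 groups.

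**Figure D2:**
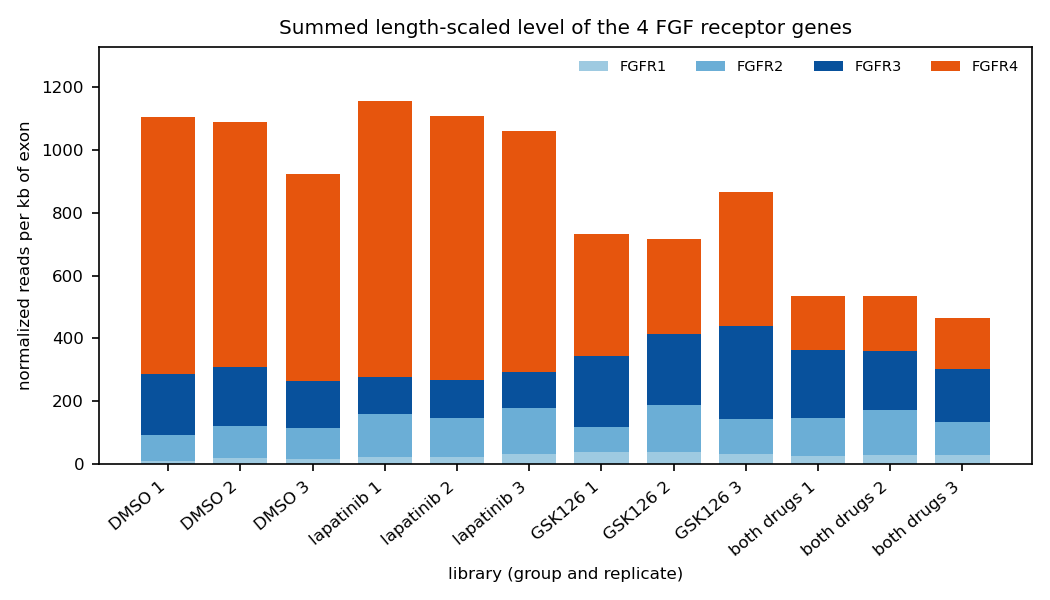
Stacked bars give, for each of the 12 libraries, the normalized reads per kb of exon of FGFR1, FGFR2, FGFR3 and FGFR4 (vertical axis, linear from 0; colours mark the genes). The FGFR4 part is the largest in every DMSO, lapatinib and GSK126 library and shrinks to 31.8% to 35.2% of the bar with both drugs.

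DDR1, a receptor that collagen activates and that epithelial cells carry, rose with lapatinib. Its counts were 6868, 9859 and 6747 in DMSO and 16949.9, 15122 and 15833 with lapatinib. With GSK126 they were 6106, 11584 and 12841, and with both drugs 13649, 13229.8 and 11883. All lapatinib libraries were above all others, and GSK126 library 1 lay below the DMSO libraries while GSK126 libraries 2 and 3 lay above them. Lapatinib raised DDR1 2.04-fold (log2 change 1.05 ± 0.24, adjusted p = 0.00647), and spike-in scaling was the only alternative that ended the call (0.51, adjusted p = 0.650, with the median of all genes at -0.49). ERBB2, the gene of HER2, went from 154286 ± 11816 to 297566 ± 7690 (n = 3) between the same groups. Both drugs against DMSO raised DDR1 by 0.74 ± 0.24 (adjusted p = 0.0254). That adjusted p was 0.0876 and 0.0906 without DMSO library 1 or 3, and 0.0781 and 0.0719 without library 1 or 2 with both drugs, and the direction turned with spike-in scaling (-0.26). GSK126 against DMSO gave 0.33 ± 0.24 (adjusted p = 0.430, and 0.0111 without GSK126 library 1, at 0.66). Both drugs against lapatinib gave -0.31 ± 0.24 (adjusted p = 0.465) although the groups did not overlap, and a fit of only these groups called it (adjusted p = 0.0318).

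MET, whose ligand is hepatocyte growth factor, was not called in any comparison. Its counts were 800.4, 861 and 952 in DMSO, 771, 759 and 968 with lapatinib, 724, 1217 and 648 with GSK126 and 829, 1165 and 1021 with both drugs. The groups overlapped in each pairing. The 95% intervals of its log2 change were -0.55 to 0.41 for lapatinib and -0.55 to 0.41 for GSK126 against DMSO, and -0.28 to 0.68 for both drugs against DMSO. Without GSK126 library 2, the comparison of both drugs with GSK126 passed (0.54, adjusted p = 0.0346, against 0.26 and 0.437 with it).

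RET, which signals for GDNF family ligands, was low in all groups and lower in every lapatinib library than in every DMSO library. Its counts were 18.4, 12.8 and 7.47 in DMSO, 1.96, 0 and 1.88 with lapatinib, 8.76, 11.5 and 14.1 with GSK126 and 16.2, 0.809 and 0.964 with both drugs. The 3 lapatinib libraries together held 4 reads of RET, against 35 in DMSO. All DMSO and GSK126 libraries were above all lapatinib libraries, and of the libraries with both drugs only number 1 was not as low as those. No lapatinib library reached the value of 10 that the filter asks of 3 libraries. RET was therefore tested only through groups where it is higher, and its calls are no support for a fall. The log2 change with lapatinib was -2.69 ± 0.84 (adjusted p = 0.0314). It was called by edgeR (adjusted p = 0.0445) and DESeq2 (0.0179) and lost without DMSO library 1 or 2 (0.103 and 0.0714) or without lapatinib library 1, 2 or 3 (0.0550, 0.119 and 0.0568). Both drugs against DMSO gave -1.74 ± 0.84 (adjusted p = 0.115), and without library 1 with both drugs -2.80 (adjusted p = 0.00981). Both drugs against GSK126 gave -1.64 ± 0.84 (adjusted p = 0.198), and -2.70 without that library (adjusted p = 0.0294).

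AXL, a receptor of the mesenchymal state, was low throughout. Its counts were 15.9, 6.92 and 12.8 in DMSO, 9.79, 20.2 and 8.45 with lapatinib, 18.6, 9.97 and 15.9 with GSK126 and 29.9, 1.62 and 0 with both drugs. Library 1 with both drugs was the highest of all 12 and the other two of that group the lowest. No comparison of AXL passed with all libraries. Without that library, AXL was lower with both drugs than with DMSO (log2 change -2.92, adjusted p = 0.00464), lapatinib (-3.00, adjusted p = 0.00847) and GSK126 (-3.25, adjusted p = 0.00706). AXL then passed the filter only through the groups where it was higher, since the libraries left with both drugs were at 1.62 and 0. These calls are therefore no support for a fall. A gene on the opposite strand, AC011510.1, shares 67 exon bases with AXL in GENCODE v29.

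KIT, the receptor of stem cell factor, had no read in any lapatinib library and a few in most libraries with GSK126. Its counts were 0, 0.988 and 5.34 in DMSO, 0 in each lapatinib library, 0, 11.5 and 21.2 with GSK126 and 21.2, 8.90 and 7.71 with both drugs. All libraries with both drugs were above all DMSO and lapatinib libraries. A total of 3 reads over the lapatinib group was taken as the upper limit for a count of 0, and corresponds to a level of 0.991. The mean of KIT with both drugs was 12.7-fold that level, and 8.38-fold without library 1 of that group. That limit covers counting error in the lapatinib libraries only, and the mean with both drugs was taken as exact. KIT met the filter with exactly 3 libraries, GSK126 libraries 2 and 3 and library 1 with both drugs, so it was tested only because it was high under GSK126, and its call is no support for a rise. The adjusted p in limma was 0.0338, and the call was lost without lapatinib library 1, 2 or 3 (0.0909, 0.0900 and 0.0851), without library 2 or 3 with both drugs (0.0826 and 0.0634) and with spike-in scaling (0.161). Without library 1 with both drugs, or without GSK126 library 2 or 3, KIT fell below the filter and was not tested. Mast cells are the classical KIT-bearing cells. Of their 4 listed markers 3 were in the table, summing to 0 in every DMSO library, 0 to 1.06 with lapatinib, 0 to 3.83 with GSK126 and 20.2 to 57.3 with both drugs. CPA3 and MS4A2 had reads only in library 1 with both drugs, so HDC alone made up the sums in all other libraries. The part of these markers in the result was not tested.

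ROR1, a Wnt receptor of embryonic tissue, did not reach the filter and has no test. Its counts were 0, 3.95 and 5.34 in DMSO, 0, 1.06 and 0.938 with lapatinib, 20.8, 6.14 and 6.19 with GSK126 and 31.1, 4.04 and 4.82 with both drugs. The GSK126 libraries were above the DMSO libraries without overlap, and the highest value was again in library 1 with both drugs.

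**Figure D3:**
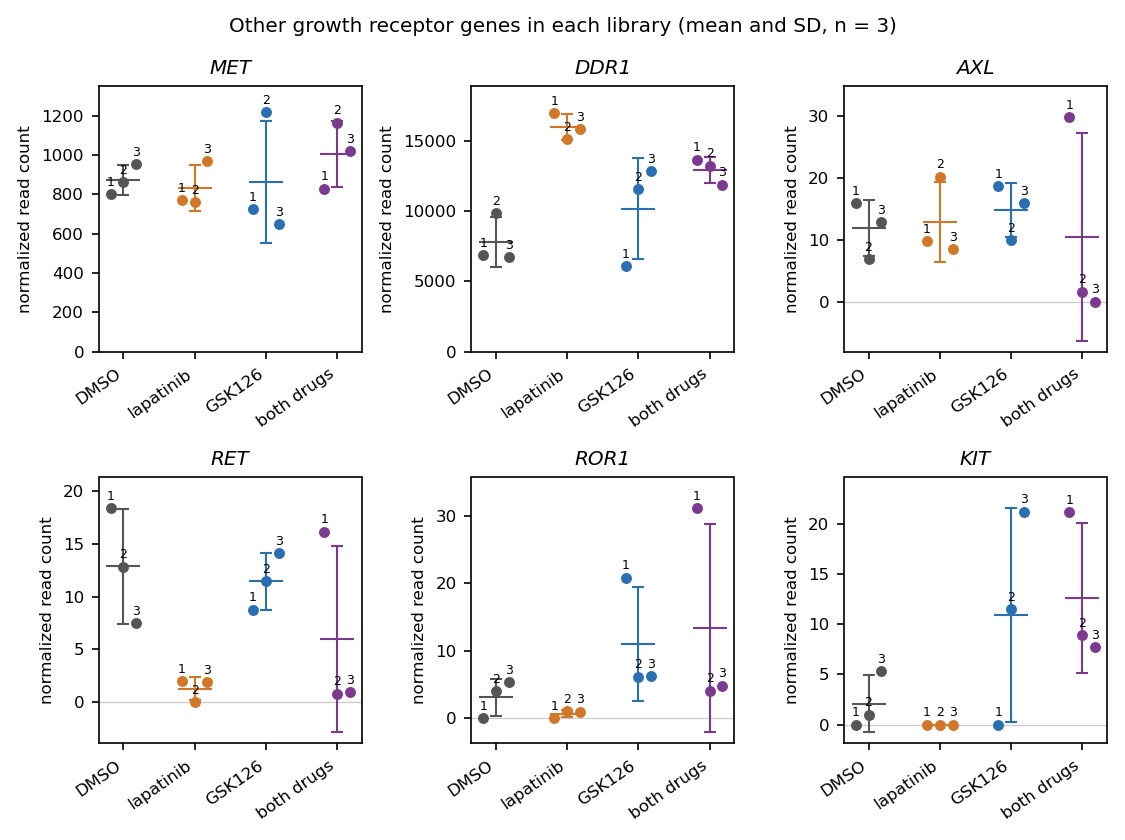
Normalized read count (vertical axis, linear, own scale per gene) of MET, DDR1, AXL, RET, ROR1 and KIT in each library, by group; points are libraries with their replicate number, horizontal bars are means and vertical bars SD (n = 3), which can pass below 0. Library 1 with both drugs holds the highest AXL (29.9) and ROR1 (31.1) values, and RET has at most 1.96 with lapatinib.

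Counted over the 9 tested receptors, lapatinib against DMSO raised 2 (FGFR1 and DDR1) and lowered 2 (FGFR3 and RET), where 28% of all tested genes were called, 13.7% higher and 14.3% lower. RET is in that count only through libraries of the other groups that let it pass the filter, and 1 lower call (FGFR3) is left without it. GSK126 against DMSO raised 1 (FGFR1) and lowered 1 (FGFR4), with 14.6% of all genes called, 10.7% higher and 3.93% lower. Both drugs against lapatinib raised 2 (FGFR3 and KIT) and lowered 1 (FGFR4), with 17.9% of all genes called, 11.5% higher and 6.35% lower. KIT is in that count only through the GSK126-treated libraries that let it pass the filter, and 1 higher call (FGFR3) is left without it. Both drugs against GSK126 lowered 1 (FGFR4) and raised 0 in limma, edgeR and DESeq2 alike, and 0 at an unadjusted p under 0.05 in limma, with 18.2% of all genes called, 8.48% higher and 9.71% lower. Both drugs against DMSO raised 2 (FGFR1 and DDR1) and lowered 1 (FGFR4), with 42.1% of all genes called, 22% higher and 20.1% lower. The test of whether the lapatinib effect differed with GSK126 called 0 receptors in limma and edgeR, and 2 at an unadjusted p under 0.05 in limma (FGFR1 and FGFR4). DESeq2 called those 2. limma called 3 of all genes there (0.0212%, with 0.0141% higher and 0.00705% lower). The median log2 change of the tested receptors was 0.07 with lapatinib and 0.33 with GSK126 against DMSO, and the medians of all genes were 0.04 and -0.04. The comparisons share control libraries, so they are not separate evidence for one gene.

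**Figure D4:**
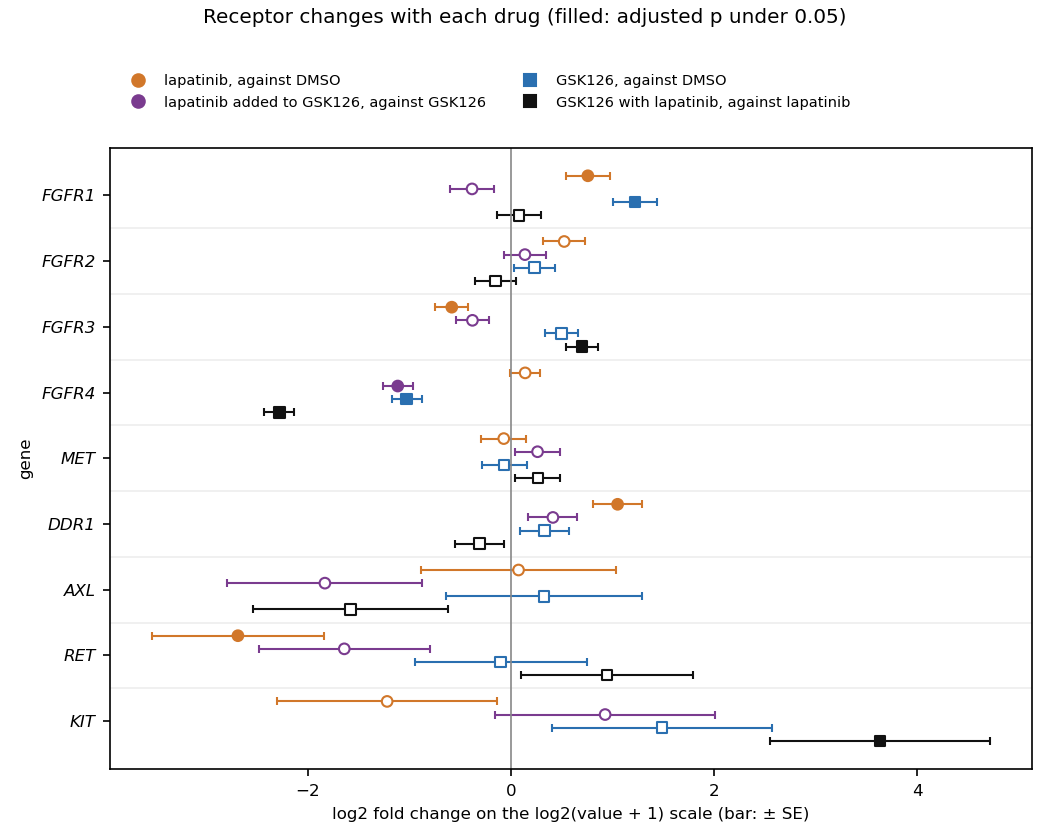
Log2 fold change (horizontal axis, log2(value + 1) scale, bars ± SE) of the 9 tested receptors for each drug with and without the other; filled symbols passed an adjusted p of 0.05. For FGFR4 the change with lapatinib alone is 0.14, and with GSK126 already present it is -1.11.

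Ligands and helpers of these receptors were read from lists. Of 18 secreted FGF ligand genes, 14 were in the table and 2 were tested. FGF1, which binds all FGF receptors, was called higher with both drugs than with lapatinib (3.95 ± 0.85, adjusted p = 0.00530) and than with DMSO (3.44 ± 0.85), at means of 5.45 in DMSO, 3.02 with lapatinib, 24.5 with GSK126 and 47.0 with both drugs. It passed the filter only through the GSK126-treated groups, where it was high, so these calls are no support for a rise. FGFRL1, an FGF receptor without a kinase domain, was 1 of 2 tested co-receptors and binding proteins, and rose with GSK126 (1.46 ± 0.42) and with both drugs against lapatinib (1.70 ± 0.42). Of the 10 ligand genes of the other receptors 6 were tested. With GSK126 3 rose and 1 fell, where 10.7% of all tested genes rose and 3.93% fell: GAS6, the AXL ligand (2.86 ± 0.38), GDF15, a ligand of RET with its co-receptor GFRAL (1.74 ± 0.30), WNT5A, a ligand of ROR1 (1.25 ± 0.23), and, lower, KITLG, which encodes stem cell factor (-1.26 ± 0.30). Both drugs against lapatinib called the same 4 in the same directions (11.5% of all genes higher and 6.35% lower), with GDF15 at 3.30 ± 0.30 and KITLG at -1.51 ± 0.30. Lapatinib raised 1 of the 6, WNT5A (1.08 ± 0.23), where 13.7% of all tested genes rose. The means of WNT5A were 598 in DMSO, 1239 with lapatinib, 1443 with GSK126 and 3029 with both drugs. HGF, the MET ligand, was not tested, with no read in any DMSO, lapatinib or GSK126 library. Its mean of 4.15 with both drugs (SD 7.19) came from library 1 of that group alone, at 12.4. Among 4 tested genes that activate HGF or inhibit that step, GSK126 raised 1 and lapatinib raised 2, where 10.7% and 13.7% of all tested genes rose. PLAU, the urokinase gene, rose by 4.61 ± 0.25 with GSK126 (53.1 to 1354 on average) and by 0.87 ± 0.25 with lapatinib. SPINT1, an inhibitor of HGF-activating proteases, rose by 0.98 ± 0.17 with lapatinib.

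Of the 14 adaptor and relay genes, all tested, lapatinib raised 4 and lowered 1. Among all tested genes 28% were called, 13.7% higher and 14.3% lower, and a difference from that background was not tested. GAB2, a docking protein, rose by 1.56 ± 0.32, FRS3, an FGF receptor substrate, by 0.83 ± 0.24, and SOS2, a RAS activator, by 0.92 ± 0.30, and PLCG1, a phospholipase that receptors bind, fell by 0.88 ± 0.18. GSK126 raised 1 of the 14, GAB2 (1.49 ± 0.32), where 10.7% of all tested genes rose. Of 10 turnover and shedding genes, lapatinib raised 1, LRIG1 (0.81 ± 0.27), a brake on receptor levels, where 13.7% of all tested genes rose. Among the other 48 receptor tyrosine kinases 28 were tested. With lapatinib 5 rose and 4 fell, where 13.7% of all genes rose and 14.3% fell. EPHA2 (-1.48 ± 0.25) and CSF1R (-1.25 ± 0.23) were among those that fell. With GSK126 11 rose and 2 fell, where 10.7% of all genes rose and 3.93% fell, with PTK7 (2.81 ± 0.20), INSR (1.56 ± 0.17), EPHB2 (3.72 ± 0.51) and CSF1R (1.52 ± 0.23) at the smallest adjusted p. Their median log2 change was 0.14 with lapatinib and 0.30 with GSK126, beside 0.04 and -0.04 over all genes. Both drugs against lapatinib raised 12 and lowered 4 of these 28 (11.5% and 6.35% of all genes), with a median of 0.92 beside -0.03 over all genes. Genes close to silent in DMSO enter these counts and medians only where other groups raise them. NTRK3, EPHA8, EPHA10, EPHB2, MERTK and LTK, all counted as higher with GSK126, had DMSO means of 0.712 to 5.48. That is under the filter value of 10, so their calls are no support for a rise. All of them except EPHA8 were also counted as higher with both drugs than with lapatinib. PTK7, INSR and CSF1R had DMSO means of 109, 286 and 223. Marker sums of other cell types also differed between GSK126 and DMSO. The 8 basal and mesenchymal markers summed to 1261 to 1664 in DMSO and 3247 to 7600 with GSK126, with FN1 reaching 6355. The 5 endothelial markers summed to 206 to 269.7 and 934 to 1561, with CDH5 reaching 1529, while PECAM1, KDR and TEK were at 0 in 6 or more libraries. The sum of the 6 fibroblast markers was lower without overlap, at 249 to 392 in DMSO and 142 to 242 with GSK126. COL1A1 reached 337, and COL3A1, DCN and LUM had at most 13.7, 4.90 and 2.49 in any library. PDGFRB went the other way, with a mean of 1.07 in DMSO and 6.91 with GSK126. The sums of the 5 leukocyte markers overlapped, at 44.5 to 63.7 and 27.6 to 71.2. Their part in the receptor changes was not tested.

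Genes with the profile most like each called receptor over the 12 libraries were found by Pearson correlation of log2 values among all tested genes, as a description with no test, since the libraries share 4 treatments. FGFR4 was closest to DDB1 (r = 0.987), DMPK (0.978) and SLC16A10 (0.978). SLC16A10, an amino acid transporter gene, had means of 207 in DMSO, 257 with lapatinib, 92.4 with GSK126 and 25.5 with both drugs, and was 1 of the 3 genes whose lapatinib effect differed with GSK126. FGFR3 was closest to GLIS2 (r = 0.985) and to TYRO3 (0.972), another receptor tyrosine kinase with means of 1657, 1228, 1980.3 and 1759.9 in the same order of groups. DDR1 was closest to STIM1 (r = 0.991), FGFR1 to TMEM56-RWDD3 (0.937), RET to C1QTNF2 (0.927) and KIT to ESYT3 (0.942).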

How the data were processed

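Messenger RNA of SKBR3 cells was sequenced as 75 bp single-end reads, per the labels and the series' design text. The authors aligned with STAR to hg19 and normalized with DESeq2, per the submitters' processing notes. The counter, annotation, strand setting and versions are not given in the sources used here. What the authors deposited is a normalized signal, gene reads over a library's size factor. Dividing by the value of 1 read gave whole reads (tolerance 0.01) for 100% of values. Of 22256 features, 86 spike-in transcripts were left out of tests.

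Tests used limma 3.58.1 (R 4.3.3) with a pseudocount of 1, fitting 4 group means to all 12 libraries with 8 residual df; the prior variance was trended, and p-values were adjusted by Benjamini-Hochberg across 14179 genes. Alternatives tried were a pseudocount of 0.5 or 5, the filter at 50 or dropped, TMM, total-count and spike-in scaling, a constant prior variance, only the groups compared, a replicate block, the spike-in group as a term, edgeR 4.0.16 and DESeq2 1.42.0 on the recovered reads, and leaving out each library. The shares of the FGF receptors and their alternatives were added after the data were seen. Members and gene lists were chosen with earlier results of these data known. Named genes are the 10 receptors and, from each list, up to 4 called genes with the smallest adjusted p, and the genes most correlated with a called receptor. Other listed genes are named where they met the filter through groups in which they were higher. The procedure was tested on simulated data. Promoter windows came from RefSeq (GRCh38.p14), matched by symbol.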

Additional observations from a re-analysis of the deposited data

How the results depend on the processing

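Of 13 called receptor results, 3 held in every alternative, all of them FGFR4 (both drugs against lapatinib, GSK126 and DMSO), and 2 reversed, both with spike-in scaling. The number of receptors called higher with lapatinib against DMSO went from 2 to 0 with spike-in scaling, 3 in a fit of only these groups or with the spike-in group as a term, and 1 to 3 when libraries were left out in turn. The number called lower there went from 2 to 1 with a filter of 50, total-count scaling or spike-in scaling, and was 0 to 2 with libraries left out. For GSK126 against DMSO, 1 higher became 0 with spike-in scaling or the spike-in group as a term, 2 with DESeq2 and 1 to 4 with libraries left out, and 1 lower became 0 with spike-in scaling or the term. For both drugs against lapatinib, 2 higher became 1 with a filter of 50, 0 with spike-in scaling and 1 to 2 with libraries left out, and 1 lower became 2 in a fit of only these groups or with the term, and 1 to 2. For both drugs against GSK126, 0 higher became 0 to 1 with libraries left out, and 1 lower became 2 with spike-in scaling and 1 to 3. For both drugs against DMSO, 2 higher became 0 with spike-in scaling, 3 in a fit of only these groups and 1 to 3 with libraries left out, and 1 lower became 2 with spike-in scaling, 3 with the term and 1 to 3. For the difference between the lapatinib effects, 0 lower became 2 in DESeq2 and 0 to 1 with libraries left out. The cause was not tested.

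Log2 changes that reversed were as follows. With spike-in scaling, lapatinib against DMSO gave FGFR2 -0.015, FGFR4 -0.40 and AXL -0.42. Both drugs gave FGFR1 -0.38 and MET -0.20 against lapatinib, and FGFR2 -0.90, MET -0.78, DDR1 -0.63 and KIT -0.27 against GSK126. Against DMSO they gave FGFR1 -0.16, FGFR2 -0.63, FGFR3 -0.89, MET -0.81 and DDR1 -0.26, and the difference of lapatinib effects was -0.30 for FGFR3 and -0.17 for MET. With total-count scaling, MET was 0.10 with lapatinib, and MET 0.038 and RET 0.00045 with GSK126 against DMSO. With the spike-in group as a term, GSK126 against DMSO gave MET 0.43 and AXL -4.10, and both drugs gave RET -0.12 against lapatinib. Against GSK126 they gave FGFR2 -0.10, MET -0.10, AXL 1.18 and RET 0.32, and the difference of lapatinib effects was -0.029 for MET and 1.11 for AXL. With each library left out in turn, AXL was -0.28 to 0.31 with lapatinib, and GSK126 against DMSO gave -0.34 to 0.11 for MET and -0.42 to 0.18 for RET. Both drugs gave RET -0.12 to 1.51 against lapatinib, FGFR2 -0.084 to 0.35 and KIT -0.43 to 1.18 against GSK126, and FGFR3 -0.0053 to 0.21 against DMSO. The difference of lapatinib effects was -0.016 to 1.61 for RET. Except for FGFR1 and DDR1 against DMSO, none of these had been called.

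Genes called higher and lower over the whole table were 1949 and 2024 with lapatinib, against 2314 and 1476 with total-count scaling and 42 and 743 with spike-in scaling. For GSK126 they were 1512 and 557, against 1535 and 261, and 565 and 13, and they were 391 and 55 with the spike-in group as a term, 803 and 66 in a fit of only these groups and 1901 and 1330 without GSK126 library 1. For both drugs against lapatinib they were 1637 and 900, against 1670 and 559, and 327 and 81. For both drugs against GSK126 they were 1202 and 1377, against 1311 and 978, and 13 and 3044. For both drugs against DMSO they were 3114 and 2856, against 3921 and 1812, and 598 and 4111. Fitting just the libraries of a comparison called 43% of genes with lapatinib, 35.9% for both drugs against lapatinib and 6.69% for both drugs against GSK126, where the spike-in term gave 8.09%. Leaving out lapatinib library 1 or 3 gave 18% and 18.2% with lapatinib. Leaving out GSK126 library 2 gave 31.3% for both drugs against GSK126, and library 1 or 2 with both drugs 10.7% and 9.64%. For the difference of lapatinib effects, the share ran from 0% with spike-in scaling to 0.798% in DESeq2.

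A fit with the replicate number as a block changed no receptor call; the counts stayed at 2 higher and 2 lower with lapatinib, and FGFR4 with both drugs against lapatinib was again -2.28. Deviations of same-numbered libraries correlated from -0.33 to 0.35, and 4 of 12 libraries correlated best with their own number, so the numbers were not taken to pair libraries. Depth limits AXL, RET, ROR1 and KIT, which rest on few reads, and all 4 also on library 1 with both drugs.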
